A study of Mus musculus with 7 samples.

Results

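The miRNAs of the imprinted Dlk1-Dio3 cluster were followed in 7 small RNA libraries of CD1 mouse testis. A miRNA was taken as a member when its miR number, with any letter or arm, was 1 of 53 numbers encoded in the cluster. This rule found 38 of the 331 listed mature miRNAs, from 29 hairpins. CD1 is an outbred strain, and the labels give no mutation or treatment of the animals. T6 and T10 were uncultured testes of mice at 6.5 and 10.5 dpp, given as 6 and 10 days in the sample labels. Explants of 6.5 dpp cultured for 12 days gave T6-12K (with KSR) and T6-12A (with AlbuMAX I), and those of 10.5 dpp gave T10-12K and T10-12A. TAD was testis of adults of 2 months. Cultures were kept at 34 °C with 5% CO2. The 6.5 dpp explant was an entire testis and the 10.5 dpp explant was part of one, so that age and explant form cannot be told apart in the cultures. KSR stands in for serum in the medium, and AlbuMAX I is bovine serum albumin rich in lipid. The authors report smaller explants and frequent aberrant nuclei with AlbuMAX I, and used only the KSR cultures for their cytology. The part of this in the results below was not tested. The authors give 2 testis explants per RNA analysis after different culture times, without naming uncultured or adult testis there. Each condition had 1 library, with no replicate, so no difference between conditions was tested and every interval below covers counting error only.

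The cluster is imprinted: its protein-coding genes Dlk1, Rtl1 and Dio3 are transcribed from the paternal chromosome, whereas the non-coding RNAs Meg3, Rian and Mirg and the miRNAs are transcribed from the maternal one. Many of the miRNAs are processed from long transcripts that run through the cluster, and they are best known from embryo, placenta and brain. A group near Rtl1 lies on the strand opposite to that gene. These are general facts about the locus and not results of these libraries.

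On GRCm38 the member hairpins span chr12:109571990-109743795, all on the plus strand where a reference position was found. The 12 Rtl1-proximal members come from 8 hairpins between 109571990 and 109595388, the 2 members of the Rian region (miR-341-3p and miR-370-3p) from 2 hairpins between 109611500 and 109618336, and the 24 Mirg members from 19 hairpins between 109709060 and 109743795. GENCODE release 21 annotates Mirg from 109729764 to 109749460 only. Of the Mirg members, 7 therefore lie in an intron and 3 in an exon of annotated Mirg, and the others upstream of it. Both members of the Rian region lie in Rian introns. Of the Rtl1-proximal members, 9 lie opposite an exon of Rtl1, and the reverse complement of each of these 9 was found in full in the Rtl1 mRNA.

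A mature miRNA recognises its targets mainly by its seed, bases 2 to 8, written below in capitals. The 5 most abundant members are shown first, since they carry most of the reads of the cluster. RefSeq (GRCm38.p6) held the sequence of 36 of the 38 members. miR-485-5p and miR-487b-3p are named only.
miR-127-3p: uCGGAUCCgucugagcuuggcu
miR-411-5p: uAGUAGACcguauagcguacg
miR-541-5p: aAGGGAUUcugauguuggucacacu
miR-434-3p: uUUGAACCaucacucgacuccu
miR-410-3p: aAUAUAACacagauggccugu

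The next sequences are close relatives, shown because their reads could be assigned to one another in counting. miR-300-3p and miR-381-3p differ at 3 of 22 positions, 1 of them in the seed. miR-379-3p and miR-411-3p differ at 2 of 22 positions and share their seed. How reads that match more than 1 miRNA were counted is not given in the sources used here, so the separate levels within these pairs are uncertain.
miR-300-3p: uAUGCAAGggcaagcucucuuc
miR-381-3p: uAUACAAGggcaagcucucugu
miR-379-3p: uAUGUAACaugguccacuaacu
miR-411-3p: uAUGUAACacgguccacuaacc

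The last set is the remaining arms of hairpins whose balance of arms differed in culture, together with miR-7229-5p, which is encoded outside the cluster, at chr5:113324525-113324545 on the minus strand, and has the same seed as miR-411-5p.
miR-379-5p: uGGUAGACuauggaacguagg
miR-376b-5p: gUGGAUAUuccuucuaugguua
miR-376b-3p: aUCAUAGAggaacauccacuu
miR-409-5p: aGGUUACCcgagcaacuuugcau
miR-409-3p: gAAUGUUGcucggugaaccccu
miR-7229-5p: uAGUAGACaucccuggauagc
The members are otherwise like the rest of the table in sequence. Their median length was 22 bases, as over the 288 listed miRNAs with a sequence, 47.2% of them start with U against 49.0% of these 288, and the median GC content was 47.7% against 45.5%.

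The deposited values are reads scaled by 1 factor per library. Estimated reads on listed miRNAs ranged from 7075528 to 13397407 in the 6 prepuberal and cultured libraries and numbered 1628770 in TAD, so that the adult values are the least precise. Levels are given as CPM, the reads of a miRNA per 1000000 reads on listed miRNAs. Since miR-10b-5p alone took between 31.2% and 54.4% of these reads, ratios are also set beside the median ratio of all listed miRNAs. miRNA markers of the tissue and of other cells moved between the libraries too. The 6 listed miRNAs of meiotic and postmeiotic germ cells (miR-34b, miR-34c, miR-449a and miR-449c) summed to 74.0 CPM in T6 and 164 CPM in T10, to between 614 and 1972 CPM in the cultures and to 25799 CPM in TAD, with miR-34b-3p at 0 in T6. The 10 mesenchymal and smooth muscle miRNAs (miR-143, miR-145a, miR-199a, miR-199b and miR-214) summed to 107416 CPM in T6, 149221 CPM in T10, between 159291 and 214637 CPM in the cultures and 259604 CPM in TAD, where 3 of them were listed at 0. The 16 listed miRNAs of the X-linked testis cluster, above 0 in all 7 libraries, summed to 49036 CPM in T6, 89827 CPM in T10, between 18071 CPM (T6-12K) and 65482 CPM in the cultures, and 128760 CPM in TAD. Erythroid miRNAs summed to 1704 CPM in T6, 1510 CPM in T10, between 447 CPM (T6-12A) and 2562 CPM (T6-12K) in the cultures and 1117 CPM in TAD. In T6-12K this sum was the highest although miR-451a, of the same list, was at 0 in all 4 cultures. Endothelial miRNAs summed to between 124 and 405 CPM. The 2 listed leukocyte miRNAs reached at most 45.4 CPM and miR-133a-3p of striated muscle at most 30.4 CPM. The part of these cells in the results below was not tested, and in whole testis fewer cells of a type and less RNA per cell cannot be told apart.

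The cluster took 1.87% of the listed miRNA reads in T6 (95% Wilson interval 1.86 to 1.88%) and 1.46% in T10 (1.45 to 1.46%). With KSR the share was 0.505% after culture from 6.5 dpp and 0.392% from 10.5 dpp, and with AlbuMAX I it was 0.524% and 0.345%. TAD had the lowest share, 0.159% (0.153 to 0.166%), or 8.52% of that in T6. The order was thus T6, T10, the 6.5 dpp cultures, the 10.5 dpp cultures and adult testis, with no overlap of the counting intervals. Leaving out miR-127-3p, which held between 58.1% and 64.9% of the members' reads in each library, the other 37 members took 0.773% of reads in T6, 0.589% in T10, between 0.121% and 0.219% in the cultures and 0.0611% in TAD.

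**Figure D1:**
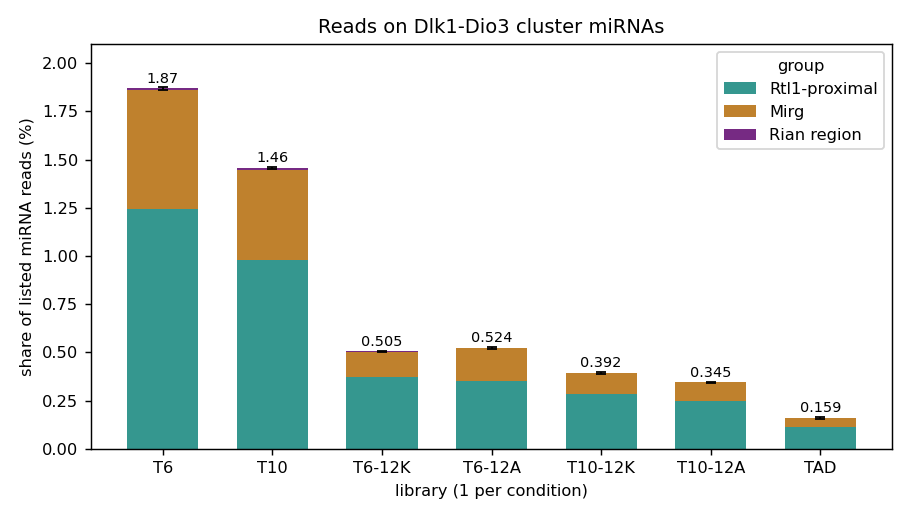
Bars show the percentage of listed miRNA reads on cluster miRNAs in each of the 7 libraries, stacked by group, with black bars for the 95% Wilson interval of the total. The share is 1.87% in T6 and 1.46% in T10, between 0.345% and 0.524% in the 4 cultured libraries and 0.159% in TAD.

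The most abundant member was miR-127-3p, encoded opposite the Rtl1 exon at chr12:109592846-109592915, whose transcript it can pair with along its whole length. It had 10974 CPM in T6 and 8673 CPM in T10. The KSR cultures had 3280 CPM (6.5 dpp) and 2512 CPM (10.5 dpp), the AlbuMAX I cultures 3042 and 2235 CPM, and TAD 982 CPM. Its level was highest in the uncultured prepuberal testes, and the cultured libraries lay between these and the adult.

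miR-411-5p, from the upstream end of the Mirg group (chr12:109710175-109710256), had 3087 CPM in T6 and 2398 CPM in T10. It stood at 671 and 562 CPM in the 6.5 and 10.5 dpp cultures with KSR, at 931 and 525 CPM with AlbuMAX I, and at 279 CPM in TAD. The order of the libraries was as for miR-127-3p, except that T6-12A lay above T6-12K.

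miR-541-5p, from a Mirg intron (chr12:109742409-109742498), had 1396 CPM in T6 and 984 CPM in T10, 274 and 267 CPM in the 6.5 and 10.5 dpp cultures with KSR, 431 and 229 CPM with AlbuMAX I, and 127 CPM in TAD. miR-434-3p, encoded opposite Rtl1 (chr12:109594506-109594599), had 982 and 798 CPM, then 345 and 253 CPM, 359 and 201 CPM, and 117 CPM, in the same order. For both miRNAs the cultures lay between the prepuberal libraries and TAD, as for 10 of the 13 members above 0 in TAD. In either direction this held for 19.5% of all listed miRNAs above 0 in TAD. miR-410-3p, from a Mirg exon (chr12:109743715-109743795), stood at 694 and 498 CPM in T6 and T10, between 56.7 and 142 CPM in the cultures and at 31.3 CPM in TAD.

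The following 5 members by mean level were miR-381-3p, miR-300-3p, miR-540-3p, miR-431-5p and miR-409-5p. In T6 they ranged from 68.1 CPM for miR-409-5p to 347 CPM for miR-381-3p, and in TAD from 3.68 CPM for miR-300-3p to 19.6 CPM for miR-381-3p. Below these 10 the cluster was sparse. Only 9 members reached 100 CPM in T6, the median member stood at 22.2 CPM there and at 17.1 CPM in T10, and the lowest, miR-433-5p, at 3.52 CPM in T6. The median member stood between 3.43 and 6.11 CPM in the 4 cultures.

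**Figure D2:**
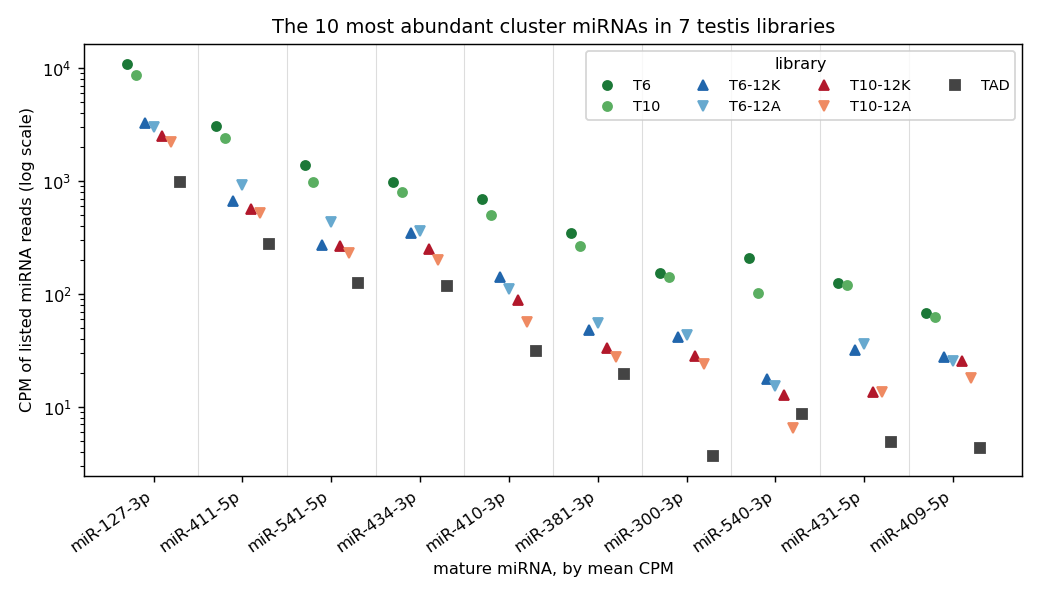
Points show the CPM (log scale) of the 10 cluster miRNAs with the highest mean level in the 7 libraries. For all 10, T6 and T10 lie above the 4 cultured libraries, and TAD is lowest except for miR-540-3p, at 8.60 CPM in TAD and 6.51 CPM in T10-12A.

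T10 was compared with T6 to see how the cluster differs between early and later prepuberal testis. CPM was lower in T10 for 37 of 38 members, beside 181 of the 326 miRNAs compared. The median log2 ratio was -0.36 for the members and -0.06 for all 326. For 23 members the counting interval lay below 0, beside 37.7% of all miRNAs, and for none above, whereas it lay above 0 for 111 of the 326. Only 4 members were 2-fold or more lower, beside 4.29% of all miRNAs. They were miR-382-5p (9.95 CPM in T6 and 2.91 CPM in T10), miR-370-3p (11.2 and 5.30 CPM), miR-540-3p (209 and 102 CPM) and miR-380-3p (23.1 and 11.3 CPM). miR-540-3p, which is encoded between Meg3 and Rtl1, is the 1 abundant member among them, with a log2 ratio of -1.04 (-1.13 to -0.95).

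The smallest differences were those of miR-431-5p, with 125 and 121 CPM, and miR-376b-5p, with 7.48 and 7.39 CPM. miR-136-5p was the member with more CPM in T10, 47.6 against 43.8 in T6, a log2 ratio of 0.12 with an interval from -0.04 to 0.28. With the values as deposited, 33 members were lower in T10 and 5 were higher, and the median log2 ratio was -0.28 for the members and 0.02 for all.

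TAD was compared with the mean of T6 and T10 to set the cluster in adult testis against prepuberal testis. All 38 members were below both prepuberal libraries, whereas 180 of 331 listed miRNAs were. The median log2 ratio of the members was -2.60, and that of all listed miRNAs -0.41. The first is a limit, since 25 members were listed at 0 in TAD, where a listed 0 can stand for up to 4 reads. Such a member was given 5 reads, or 3.07 CPM, the lowest level listed in that library. With this limit 35 members were 2-fold or more lower, beside 36.3% of all listed miRNAs, and the 3 others were at 0 and under 2 times the limit in prepuberal testis. The counting interval lay below 0 for 29 members, beside 144 of 331 listed miRNAs. With median-of-ratios factors 31 members were 2-fold or more lower, beside 29.9%. Only 5 members had at least 50 reads in each library compared, and all 5 were 2-fold or more lower, beside 20.3% of such miRNAs.

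Among members detected in the adult, miR-300-3p had the largest difference, with 6 reads (3.68 CPM) in TAD against 155 CPM in T6 and 141 CPM in T10, a log2 ratio of -5.33 (-6.48 to -4.17). miR-431-5p followed with 8 reads (4.91 CPM), a log2 ratio of -4.65 (-5.65 to -3.65). miR-127-3p was 10.0-fold lower (log2 ratio -3.32, -3.39 to -3.25), miR-411-5p 9.84-fold and miR-434-3p 7.59-fold. miR-381-3p, which differs from miR-300-3p at 3 positions, was 15.6-fold lower.

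Several members that were well detected in prepuberal testis were listed at 0 in TAD. miR-341-3p, from a Rian intron at chr12:109611500-109611595, had 91.3 CPM in T6 and 79.5 CPM in T10 and was at least 27.8-fold lower. miR-485-5p was at least 16.4-fold, miR-379-5p at least 16.0-fold, miR-134-5p at least 14.2-fold, miR-673-3p at least 7.54-fold, miR-411-3p at least 6.68-fold and miR-380-3p at least 5.60-fold lower. These limits leave out counting error. With it, the log2 ratio ran from -6.06 to -3.53 for miR-341-3p and from -3.76 to -1.215 for miR-380-3p. A further 18 members at 0 in TAD were below 20 CPM in both prepuberal libraries. Among these, miR-1193-3p, miR-369-3p and miR-487b-3p had some of the smallest limits, at log2 ratios of -0.45, -0.85 and -1.01. Of all listed miRNAs, 64 were at 0 in TAD.

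Each culture was compared with the uncultured testis of its starting age. In CPM all 38 members were lower in all 4 cultured libraries than in both T6 and T10, beside 57.7% of all listed miRNAs. This count was 37 with the values as deposited and with miR-10b-5p left out of the total, 29 with median-of-ratios factors and 28 by the trimmed mean of M-values, where 27.8% and 23.3% of all listed miRNAs were lower. Under these last 2 scalings, miR-136-5p, miR-379-5p, miR-134-5p, miR-666-5p and miR-127-5p were among the members no longer lower in every culture. Members with 50 reads or more numbered 37 in T6 and 35 in T10, but between 13 and 22 in the cultures and 5 in TAD. Weak members may thus be listed only through the prepuberal libraries, where they were highest. For these, being lower elsewhere may follow in part from the read minimum.

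With KSR, 36 members were 2-fold or more lower in T6-12K than in T6, beside 57.1% of all miRNAs compared, with a median log2 ratio of -2.01 for the members and -1.21 for all. This count was 19 with median-of-ratios factors, beside 23.7% of all, and also 19, beside 23.1% of all, by the trimmed mean of M-values. With AlbuMAX I, 35 members were 2-fold or more lower in T6-12A, beside 37.9%, with medians of -1.92 and -0.63. In T10-12K, 36 members were 2-fold or more lower than in T10, beside 40.1%, with medians of -2.33 and -0.76. In T10-12A, 36 were, beside 41.4%, with medians of -2.47 and -0.78. Relative to the other miRNAs, which no scaling of a library can alter, 34 of 38 members lay below the median ratio of all listed miRNAs with KSR and 36 with AlbuMAX I at 6.5 dpp, and 37 and 38 at 10.5 dpp. Among members with at least 50 reads in both libraries, 18 of 20 were 2-fold or more lower in T6-12K, beside 52.7% of all such miRNAs. In T6-12A 19 of 22 were, beside 29.6%, in T10-12K 16 of 18, beside 29.3%, and in T10-12A 12 of 13, beside 30.8%. The comparisons of one age share their uncultured library and are not independent of each other.

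**Figure D3:**
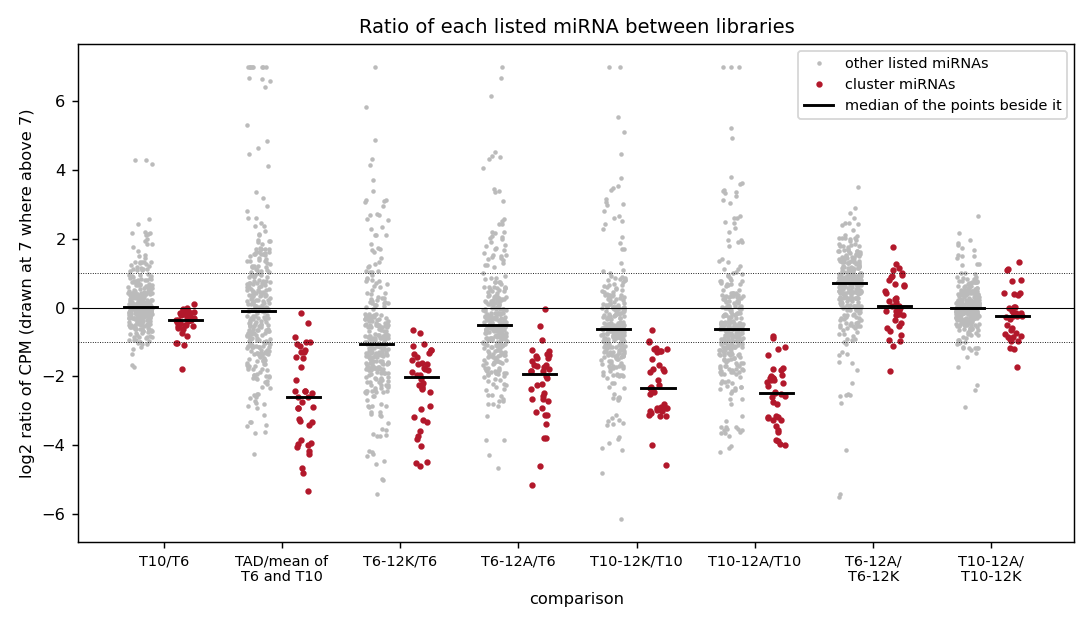
Points show the log2 ratio of CPM for each listed miRNA in 8 comparisons, with cluster miRNAs in red, the other listed miRNAs in grey and the median of each as a black line; dotted lines mark 2-fold. The cluster's median is -2.60 in TAD and between -2.47 and -1.92 in the 4 comparisons of culture with uncultured testis.

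The abundant members differed from the uncultured testis to unequal degrees. Against the uncultured testis of its age, miR-127-3p was 3.35-fold (6.5 dpp) and 3.45-fold (10.5 dpp) lower with KSR, and 3.61-fold and 3.88-fold lower with AlbuMAX I. miR-434-3p, its neighbour opposite Rtl1, was between 2.73-fold and 3.98-fold lower. miR-410-3p was between 4.87-fold and 8.78-fold lower. miR-431-5p was 3.88-fold and 3.46-fold lower in the 6.5 dpp cultures and 8.90-fold and 8.96-fold lower in those of 10.5 dpp. With the exception of miR-431-5p in T10-12K, miR-540-3p differed more than these. It had 209 CPM in T6 and 102 CPM in T10, 17.6 and 12.9 CPM in the 6.5 and 10.5 dpp cultures with KSR and 15.2 and 6.51 CPM with AlbuMAX I, and was between 7.92-fold and 15.7-fold lower.

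Among members with at least 50 reads in a compared library, large differences were found in weakly expressed 3p arms, as they were in miR-540-3p and, in T10-12K, in miR-431-5p. miR-411-3p had 324 reads in T6 and 225 in T10, against 10 and 0 in the 6.5 and 10.5 dpp cultures with KSR and 19 and 13 with AlbuMAX I. miR-379-3p had 155 and 117 reads before culture, 5 and 7 with KSR and 12 and 0 with AlbuMAX I. miR-380-3p had 309 and 151 reads before culture, 23 and 5 with KSR and 7 and 6 with AlbuMAX I. None of the 4 cultures overlapped the uncultured libraries for these 3 miRNAs, but in CPM this held for all 38 members, and 57.7% of all listed miRNAs were lower in every culture. miR-370-3p, from a Rian intron, had 149 reads in T6 and 71 in T10 and was listed at 0 in all 4 cultures and in TAD. It was at least 22.2-fold lower in T6-12K and at least 24.1-fold lower in T6-12A than in T6. These limits leave out counting error. With it, the log2 ratio of miR-370-3p ran from -5.755 to -3.184 in T6-12K and from -5.875 to -3.304 in T6-12A.

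At the other end, miR-136-5p had 27.8 CPM in T6-12K and 42.9 CPM in T6-12A, beside 43.8 CPM in T6, while the 10.5 dpp cultures had 21.1 and 21.4 CPM, beside 47.6 CPM in T10. Its interval in T6-12A (log2 ratio -0.03, -0.21 to 0.14) included 0. In T6-12K, its log2 ratio of -0.66 turned to 0.33 with median-of-ratios factors, and that of miR-666-5p, -0.73, turned to 0.26. miR-379-5p was less than 2-fold lower in 3 of the 4 cultures, with 22.7 to 30.4 CPM in the cultures against 58.1 CPM in T6 and 40.1 CPM in T10. miR-376b-5p (log2 ratio -0.53 in T6-12A and -0.88 in T10-12A) and miR-668-3p (-0.97 in T10-12K) were the other members within 2-fold in a culture. miR-136-3p in T6-12K (-1.07) and miR-329-5p in T10-12K (-1.01) came next in those libraries.

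Age at the start of culture was examined next. For 21 of 38 members both 10.5 dpp cultures had less CPM than both 6.5 dpp cultures, beside 12.4% of all listed miRNAs, and for no member was the reverse true. Under the other scalings it was between 18 members, beside 14.5% of all with the trimmed mean of M-values, and 28 members, beside 30.5% with the values as deposited. miR-431-5p showed it most plainly among abundant members, with 32.2 and 36.1 CPM in the 6.5 dpp cultures against 13.6 and 13.5 CPM in those of 10.5 dpp, whereas T6 and T10 had 125 and 121 CPM.

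The place of the cultures between prepuberal and adult testis could be read for the 13 members detected in TAD. For 10 of them all 4 cultures lay below T6 and T10 and above TAD, beside 19.5% of the listed miRNAs above 0 in TAD whose cultures lay between the prepuberal libraries and TAD in either direction. The exceptions were miR-540-3p, miR-409-3p (5.21 CPM in T10-12A, 6.14 in TAD) and miR-127-5p (2.40 CPM in T10-12K, 3.68 in TAD), each with 14 reads or fewer in TAD.

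AlbuMAX I was compared with KSR at each starting age. At 6.5 dpp the members had a median log2 ratio of 0.06, whereas the median of all listed miRNAs was 0.64. Of 37 members compared, 2 were 2-fold or more lower with AlbuMAX I, beside 5.92% of all, and 4 were 2-fold or more higher, beside 27.4% of all. The sign of the members' median depended on the scaling: it was -0.20 with the deposited values, -0.50 with median-of-ratios factors and -0.37 by the trimmed mean of M-values, whereas its difference from the median of all miRNAs, -0.58, cannot depend on the scaling. The other members past 2-fold, miR-380-3p on the lower side and miR-379-3p, miR-382-5p and miR-1193-3p on the higher, had under 50 reads in both libraries. The members past 2-fold with at least 50 reads were miR-666-5p, with 11.8 CPM with KSR and 5.47 CPM with AlbuMAX I, and miR-376b-5p, with 2.42 and 5.19 CPM. miR-668-3p (6.04 and 3.15 CPM), miR-341-3p (16.8 and 10.5 CPM), miR-434-5p (3.93 and 7.23 CPM) and miR-485-5p (6.94 and 13.5 CPM) were next on either side.

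At 10.5 dpp the medians were -0.26 for 35 members and -0.02 for all. Among the members 3 were 2-fold or more lower with AlbuMAX I and 3 higher, beside 5.64% of all in each direction. Those with at least 50 reads in a library were miR-668-3p, with 7.07 CPM with KSR and 3.08 CPM with AlbuMAX I, and miR-434-5p, with 7.21 and 3.19 CPM. miR-540-3p followed with 12.9 and 6.51 CPM. The 3 past 2-fold on the higher side, miR-411-3p, miR-433-3p and miR-369-3p, had at most 18 reads and intervals that included 0. Among members with at least 50 reads the highest ratios were those of miR-134-5p (11.3 and 14.9 CPM), miR-136-5p (21.1 and 21.4 CPM) and miR-431-5p (13.6 and 13.5 CPM), whose intervals all included 0. For miR-127-3p the log2 ratio was -0.11 in the younger and -0.17 in the older explants.

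The Rtl1-proximal and Mirg miRNAs were then compared. Summed over each group, the Rtl1-proximal members had 2.02 reads for each Mirg read in T6 (95% interval 2.00 to 2.03) and 2.11 in T10. The ratio was 2.85 and 2.60 in the 6.5 and 10.5 dpp cultures with KSR, 2.07 and 2.62 with AlbuMAX I, and 2.39 in TAD (2.19 to 2.60). It was higher in 3 of the 4 cultures and in TAD than in T6 and T10, and T6-12A overlapped them. That it exceeded 1 rested on miR-127-3p: without this miRNA the ratio was 0.237 in T6, 0.246 in T10, between 0.270 and 0.343 in the cultures and 0.299 in TAD. With the groups taken by position, 9 members opposite Rtl1 and 10 within annotated Mirg, the ratio was 5.10 in T6 and 5.64 in T10, between 5.67 and 7.50 in the cultures and 6.62 in TAD.

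As single miRNAs both groups were lower in the cultures. With KSR the median log2 ratio was -1.85 and -2.22 at 6.5 dpp and -2.35 and -2.31 at 10.5 dpp, and with AlbuMAX I -1.72 and -2.02, and -2.07 and -2.53, for the Rtl1-proximal and Mirg members respectively. The difference between the medians changed sign among these 4 comparisons and was at most 0.46. In TAD the medians, -2.75 for the 12 Rtl1-proximal and -2.54 for the 24 Mirg members, are limits and were not compared, since 6 and 17 of these members were at 0 and set to 5 reads. Both members of the Rian region were among the members with large differences: miR-341-3p had 91.3 and 79.5 CPM in T6 and T10 and between 5.56 and 16.8 CPM in the cultures.

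**Figure D4:**
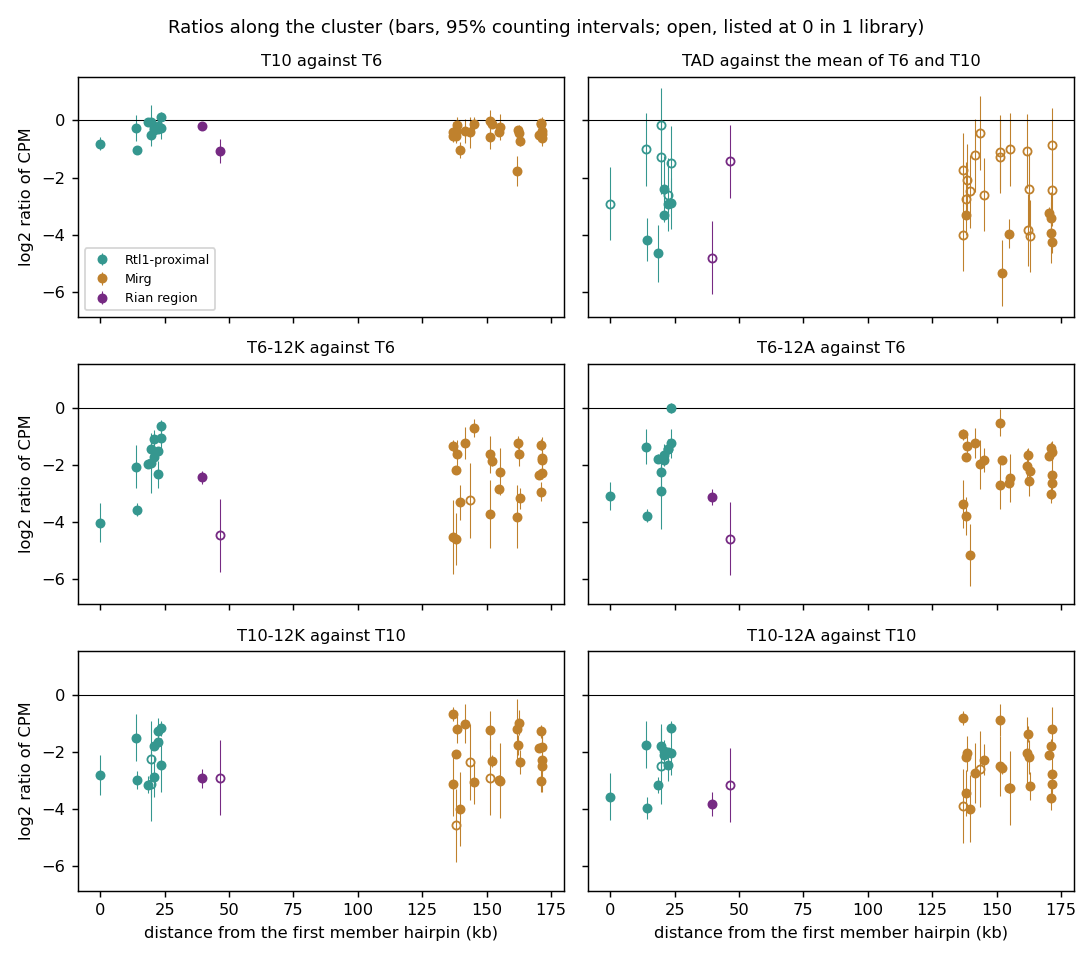
Points show the log2 ratio of CPM of each cluster miRNA against the distance of its hairpin from the first member hairpin in kb, in 6 comparisons, coloured by group, with 95% counting intervals; open points were listed at 0 in a compared library. Low ratios occur along the whole 172 kb, and in the 4 comparisons of culture the medians of Rtl1-proximal and Mirg members differ by at most 0.46 on the log2 scale.

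Both arms were listed for 9 member hairpins, which gives a measure that does not depend on the scaling of a library. The ratio of 3p to 5p reads was 2-fold or more lower in all 4 cultures than in T6 and T10 for 4 of these 9 hairpins, miR-379, miR-411, miR-376b and miR-409, beside 7.04% of the 71 hairpins with both arms listed. The opposite was found for none of the 9. Of the 62 other hairpins 1 had a lower ratio in this sense, miR-296, and 3 had a higher one, miR-25, miR-342 and miR-423. This count was made after the values had been seen.

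miR-409, in a Mirg intron (chr12:109743158-109743236), has the most reads on its less abundant arm among these 4. Its 3p arm had 898 reads in T6 and 855 in T10, 87 and 56 in the 6.5 and 10.5 dpp cultures with KSR, 89 and 44 with AlbuMAX I, and 10 in TAD. Its 5p arm had 910 and 837, 274 and 181, 276 and 152, and 7 reads in the same order. There were thus 0.987 3p reads for each 5p read in T6 (0.900 to 1.08) and 1.02 in T10 (0.929 to 1.12), against 0.317 and 0.309 in the 6.5 and 10.5 dpp cultures with KSR and 0.322 and 0.289 with AlbuMAX I, where the highest upper limit was 0.417. The ratio in TAD, 1.43, had an interval from 0.544 to 3.75, which took in the prepuberal ratios and lay above those of the cultures.

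The 3 other hairpins lie upstream of annotated Mirg. miR-379 had 0.199 3p reads for each 5p read in T6 and 0.218 in T10, and from 0.0221 to 0.0391 in the cultures. For miR-411 the ratio was 0.00785 in T6 and 0.00700 in T10 and ran from 0.00126 to 0.00293 in the cultures. For miR-376b it was 1.06 and 0.717 before culture and ran from 0.227 to 0.250 after it. Their 3p arms had at most 19 reads in a culture, and an arm listed at 0 was given 5 reads. When 10 reads were required on each arm in T6, T10 and the cultures, 4 member hairpins were left, of which only miR-409 had the pattern. miR-379, miR-411 and miR-376b were removed by this filter. The share over all hairpins under it is not given.

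The other hairpins did not show it. miR-434 had 49.4 3p reads for each 5p read in T6 and 45.9 in T10, and from 35.1 to 87.9 in the cultures. For miR-127 the ratio was 515 and 488, and between 333 and 1046. miR-369 had 0.312 and 0.371, and between 0.178 and 1.12 in the cultures. miR-136 had 0.212 in T6 and 0.163 in T10, and from 0.0671 to 0.159 in the cultures, below T6 and T10 by less than 2-fold in T6-12K.

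**Figure D5:**
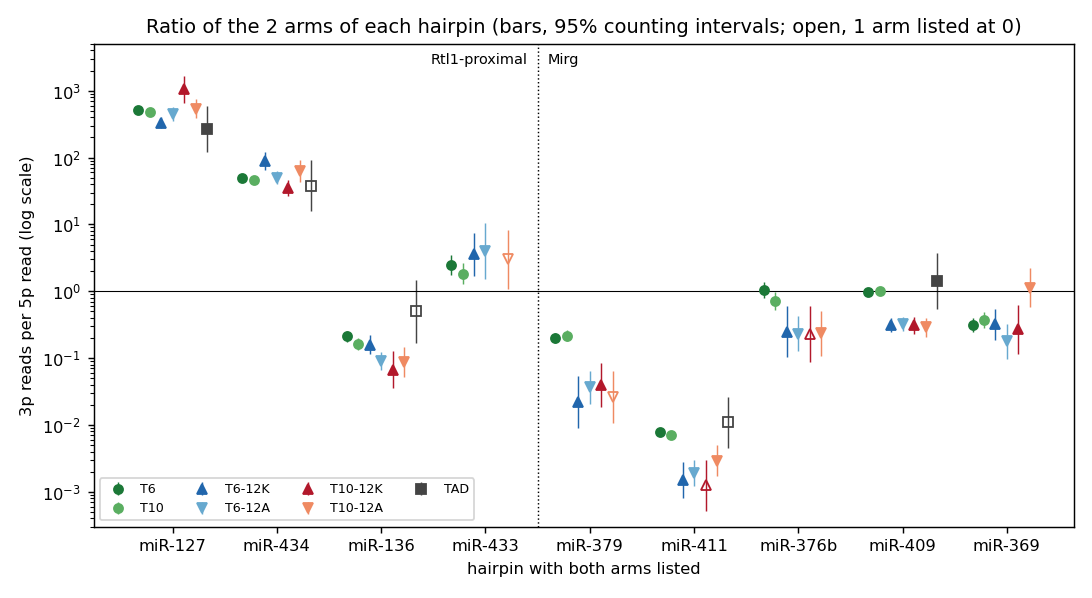
Points show the number of 3p reads for each 5p read (log scale) of the 9 member hairpins with both arms listed, by library, with 95% counting intervals; open points have 1 arm listed at 0 and set to 5 reads, and libraries with both arms at 0 are left out. For miR-379, miR-411, miR-376b and miR-409 the 4 cultured libraries lie below T6 and T10, as for miR-409 at 0.289 to 0.322 against 0.987 and 1.02.

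Over all members, 3p arms differed more from the uncultured testis than 5p arms did. The median log2 ratio of the 21 3p and 17 5p members was -2.44 and -1.82 with KSR and -2.65 and -1.66 with AlbuMAX I at 6.5 dpp, and -2.91 and -1.77 with KSR and -3.13 and -2.10 with AlbuMAX I at 10.5 dpp. Over all listed miRNAs the medians of 3p and 5p arms were -1.19 and -1.18, -0.61 and -0.62, -0.75 and -0.74, and -0.76 and -0.72, in the same order. In TAD the arms could not be compared in this way, since 14 of the 21 3p and 11 of the 17 5p members were at 0.

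Seeds shared with other listed miRNAs were examined last. miR-411-5p shares AGUAGAC with miR-7229-5p, which was listed at 0 in T6 and T10, had 21.4 and 63.2 CPM in the 6.5 and 10.5 dpp cultures with KSR and 38.4 and 55.7 CPM with AlbuMAX I, and reached 640 CPM in TAD. Summed over both, this seed had 3087 CPM in T6, 2398 in T10, between 581 and 969 in the cultures and 919 in TAD. The summed level in TAD was thus within the range of the cultures, whereas miR-411-5p alone was below them. The seed AUGUAAC, of miR-379-3p and miR-411-3p, summed to 35.8 CPM in T6, 25.5 CPM in T10, between 0.989 and 2.87 CPM in the cultures and 0 in TAD. No other member shared its seed with a listed miRNA that had a sequence.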

How the data were processed

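Small RNA was sequenced from 7 libraries, 1 per condition, on an Illumina HiSeq. The authors trimmed adaptors, aligned reads with Bowtie to mm10 and then to miRBase 21, and discarded miRNAs with fewer than 50 reads. The submitters' processing notes also name FastQC, HTSeq and DESeq. The authors deposited 1 signal per miRNA and library, reads divided by a factor whose method is not given in the sources used here, as is the rule for reads matching several miRNAs.

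In each library the low values stood at whole steps (within 0.01). The largest step that held for all of them was taken as 1 read, and 100% of values below 10000 reads were then whole. This was tested on simulated data, with 100% of reads recovered in 35 libraries. Reads were scaled to CPM. Values of 0 were set to 5 reads in ratios. Intervals are 95% Wilson intervals for shares and 95% intervals on the log scale for ratios. No test was run. The members, groups and lists were chosen with earlier results of these data known.

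Text names the 10 members with the highest mean CPM, the 3 largest ratios on each side of a comparison among those with at least 50 reads in a compared library, members at 0 with 20 CPM or more in T6 or T10, members against the main direction, hairpins with both arms at 50 reads or more in T6, and members sharing a seed or nearly a sequence. A few others were chosen with their values in view. Alternatives were 4 other scalings, read filters, the value given to 0, summed arms, other groupings and a 4-fold threshold. Marker lists were chosen from general knowledge. Python 3.11.15, numpy 2.4.6 and pandas 2.3.3 were used.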

Additional observations from a re-analysis of the deposited data

Results flagged for a closer look

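miR-541-5p differed between the supplements in opposite directions at the 2 starting ages. At 6.5 dpp it had 274 CPM with KSR and 431 CPM with AlbuMAX I, a log2 ratio of 0.65, and at 10.5 dpp 267 and 229 CPM, a log2 ratio of -0.22. The difference between the 2 log2 ratios was 0.88. The median log2 ratio of all listed miRNAs was 0.64 at 6.5 dpp and -0.02 at 10.5 dpp. At 6.5 dpp the ratio of miR-541-5p was thus close to that of the listed miRNAs as a whole. Both counting intervals of miR-541-5p excluded 0 in CPM and under the 4 other scalings. The difference between the ages was not tested, since each culture was 1 library. Of 316 listed miRNAs compared at both ages, 38 had intervals excluding 0 in opposite directions under all these scalings, and of 35 members this 1. In CPM alone this also held for miR-434-5p (log2 ratios 0.88 at 6.5 dpp and -1.17 at 10.5 dpp) and miR-485-5p (0.96 and -0.83). It held too for miR-411-5p (0.47 and -0.099) and miR-381-3p (0.19 and -0.28). The share of all listed miRNAs in CPM alone is not given.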

How the results depend on the processing

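No paired analysis was possible because each condition had 1 library, numbered 1. The median of the members relative to all listed miRNAs kept its direction under the read filter, the other value for 0 and summed arms in all 8 comparisons; a scaling moves all miRNAs of a library alike and could not change it, other than in TAD, set against a mean, where it was between -2.19 and -2.18. In the counts that follow, the percentage of all miRNAs compared stands in parentheses. Members 2-fold or more lower in T6-12K numbered 19 with median-of-ratios factors (23.7%) and 19 by the trimmed mean of M-values (23.1%), and in T10 against T6 the number was 1 as deposited (1.84%). With a 4-fold threshold 0 members were lower in T10 (0%), with KSR 19 (23.7%) and 23 (14.6%) in the cultures of 6.5 and 10.5 dpp, and with AlbuMAX I 18 (12.7%) and 28 (18.4%). For AlbuMAX I against KSR at 6.5 dpp, 5 members were lower (8.72%) and 2 higher (19.9%) as deposited, 8 (13.7%) and 1 (11.2%) with median-of-ratios factors, and 7 (10.6%) and 1 (14.6%) by the trimmed mean of M-values. Without miR-10b-5p in the total 4 were lower (6.85%), with at least 50 reads in both libraries 0 of 19 were higher (22.1%), and at 4-fold 0 were lower (2.80%) and 0 higher (4.98%). At 10.5 dpp, 5 were lower by the trimmed mean of M-values (7.52%) and 5 with 0 set to 1 read (6.58%), 0 of 13 with at least 50 reads were lower (1.35%) or higher (0.901%), 1 was higher with summed arms (4.78%), and at 4-fold 0 were lower and 0 higher (0.940% each). The member hairpins with a lower 3p to 5p ratio numbered 1, miR-409, when 10 reads were required on each arm, an alternative chosen after seeing the data. miR-379, miR-411 and miR-376b were removed by this filter, and the share over all hairpins under it is not given. Log2 ratios that changed sign were, in T6-12K, those of miR-136-5p (0.33 with median-of-ratios factors, 0.38 with the trimmed mean) and miR-666-5p (0.26 and 0.31), with the trimmed mean those of miR-376b-5p in T6-12A (0.083) and miR-379-5p in T10-12K (0.097), and, for AlbuMAX I against KSR at 6.5 dpp, those of miR-411-5p (-0.084 with median-of-ratios factors) and miR-381-3p (-0.064 as deposited, -0.37 with median-of-ratios factors, -0.24 with the trimmed mean). Without miR-127-3p the ratio of Rtl1-proximal to Mirg reads fell below 1, to 0.237 in T6 and 0.246 in T10, 0.343 and 0.291 in the 6.5 and 10.5 dpp cultures with KSR, 0.281 and 0.270 with AlbuMAX I and 0.299 in TAD. In the same order, the cluster's share was 3.46, 2.63, 1.11, 0.768, 1.09, 0.697 and 0.231% of reads other than miR-10b-5p, 0.773, 0.589, 0.177, 0.141, 0.219, 0.121 and 0.0611% without miR-127-3p, and 0.324, 0.250, 0.0827, 0.0583, 0.0832, 0.0457 and 0.0206% without the 3 members with most reads. The cause of these differences was not tested, other than fewer members where a filter or threshold removed them. In TAD 5 reads were worth 3.07 CPM, which limits the ratios of 25 members.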
